A study of Mus musculus with 20 samples.

Results

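The genes described here are 10 that mark the identity of endothelial cells: Pecam1, Cdh5, Kdr, Tie1, Tek, Vwf, Eng, Emcn, Egfl7 and Esam. All probes of these symbols were taken if their detection p-value was under 0.01 on 5 or more of the 20 arrays. Of their 17 probes 13 passed, and each of the 13 was detected on all 20 arrays. They measured 9 of the 10 genes, among 10278 genes and 18683 probes measured in all. The tissue was left ventricle from C57BL/6J mice aged 12 to 15 weeks, taken 3 days after surgery, and each array held RNA of 1 mouse. Ligation of a coronary artery (MI, myocardial infarction) was compared with sham surgery in both sexes, which gave 5 female MI, 5 female sham, 5 male MI and 5 male sham mice. The infarct itself was left out of the tissue, so the MI arrays held the surviving ventricle. The arrays were Illumina bead arrays, which read the brightness of a fluorescent label on beads that carry 1 probe sequence.

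Endothelial cells line every vessel of the heart, and in ventricle the capillaries beside the muscle fibres hold most of them. Among the proteins of the 10 genes, Pecam1, Cdh5 and Esam sit at cell junctions. Kdr, Tie1, Tek and Eng receive growth signals, and Emcn coats the cell surface. Vwf is stored and released, and Egfl7 is secreted into the vessel matrix. After an infarct, vessels in the heart are known to leak, bind leukocytes and sprout, steps in which the junction proteins and the angiopoietin and VEGF receptors take part. In this bulk tissue, fewer endothelial cells and less RNA per cell cannot be told apart.

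The whole set of endothelial identity genes did not move in 1 direction after MI. In females Esam rose 1.34-fold and Vwf fell to 0.701-fold. In males no member passed the test. With the sexes averaged, Esam rose 1.21-fold, Vwf fell to 0.721-fold and Tie1 fell to 0.758-fold. The averaged results of Esam and Tie1 did not pass under every way of processing the arrays. No member passed the test of a difference in response between the sexes.

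Between 34.6% and 40.6% of the 45281 probes were detected per array, and the median raw intensity lay between 31.4 and 39.2. The cardiomyocyte markers that define the labelled tissue were bright: 14 of 15 listed were measured, with a summed normalised intensity of 121128 to 134610 in female MI, 122102 to 131164 in female sham, 126397 to 128918 in male MI and 118673 to 129494 in male sham. The arrays lay on 4 chips, of which chips 1 and 2 held males of both groups and chips 3 and 4 held females of both groups, with 2 female sham arrays on chip 2. Chip 4 held 1 array of each female group, so it gave no value of its own. The 3 arrays in chip position F (female MI 4, female sham 2 and male sham 3) stood apart: 577 of the 18683 probes were lower there by more than 1 on the log2 scale and 2 were higher.

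**Figure D1:**
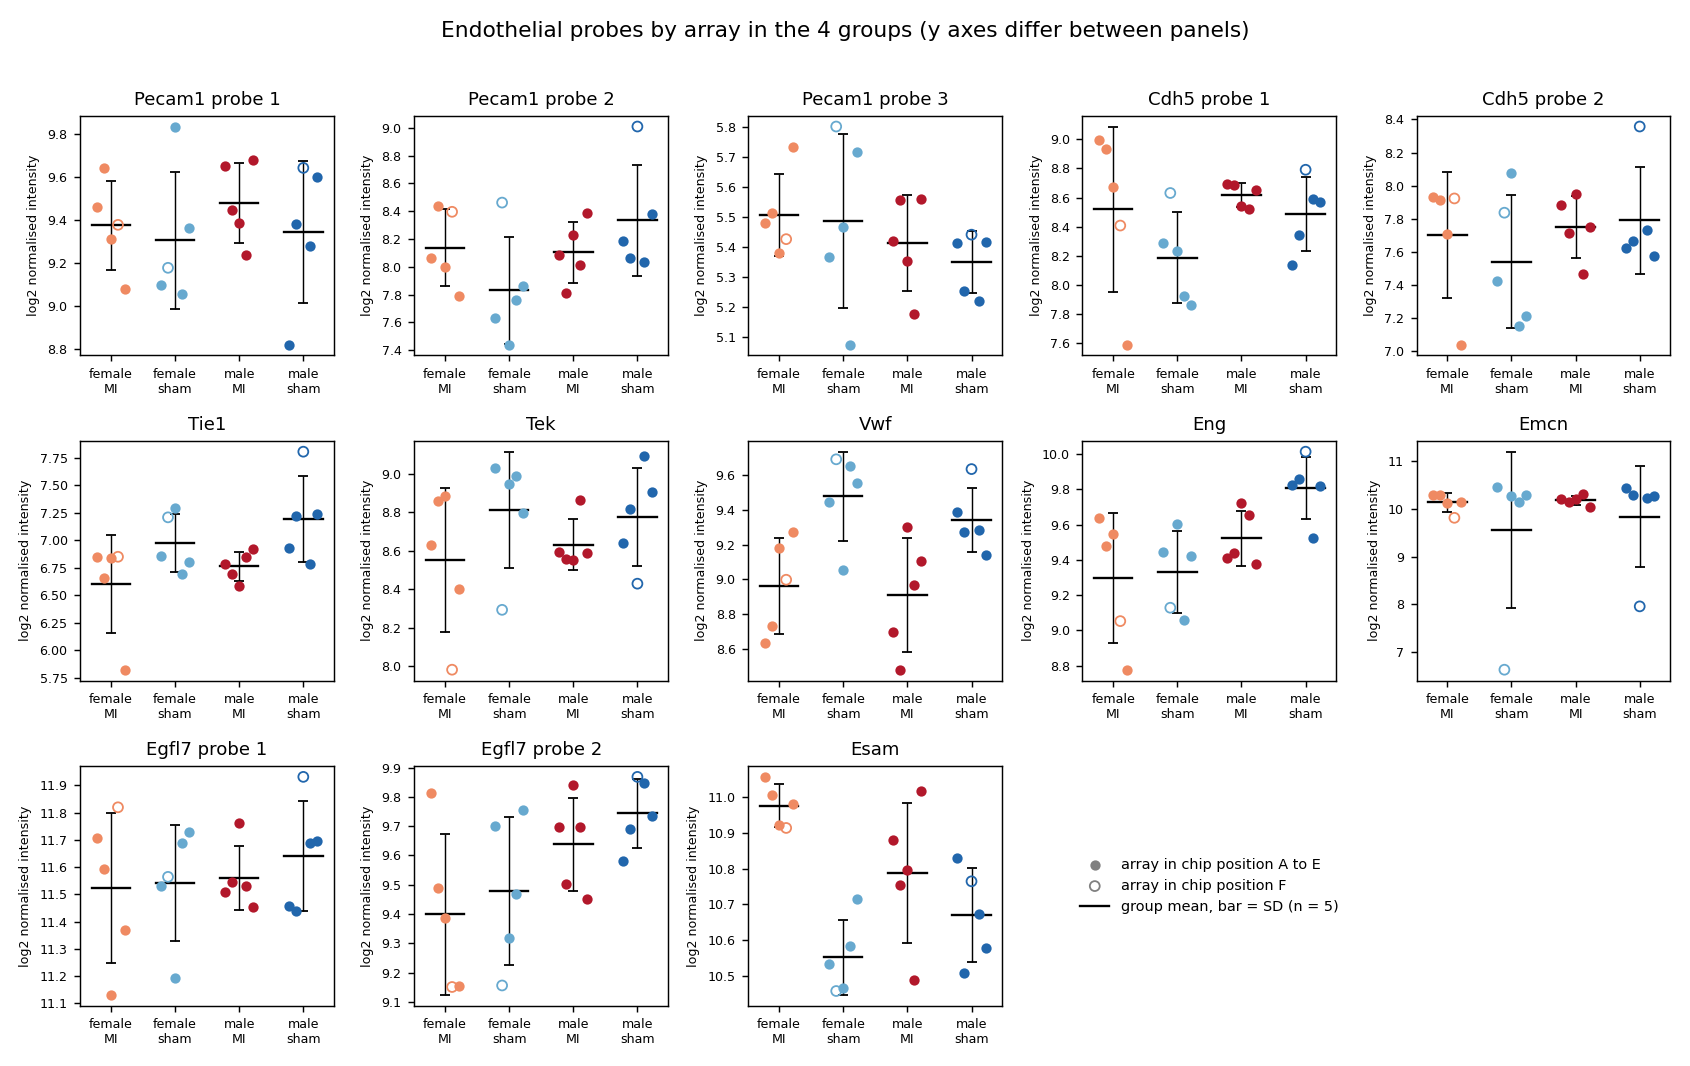
Log2 normalised intensity (y axes, which differ between panels) of the 13 endothelial probes on each array, by group (x axes: female MI, female sham, male MI, male sham). Points are arrays, open points are arrays in chip position F, lines are group means and bars are SD (n = 5); the Esam arrays of the female MI group sit between 10.91 and 11.06, all above the female sham arrays, and 2 open points of Emcn lie far below their groups.

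Esam encodes an immunoglobulin-type adhesion molecule of endothelial tight junctions, also present on platelets. Its log2 normalised intensity was 11.06, 11.01, 10.92, 10.91 and 10.98 in the female MI mice, against 10.53, 10.46, 10.47, 10.58 and 10.71 in the female sham mice. Every female MI array lay above every female sham array, as was the case for 14.2% of all probes in this comparison (either direction). The means were 10.98 ± 0.0602 in female MI and 10.55 ± 0.105 in female sham (SD, n = 5 each), a difference of 0.43 (SE 0.0997; adjusted p = 0.00281, limma with Benjamini-Hochberg adjustment over 18683 probes). In males the values were 10.88, 10.75, 10.80, 10.49 and 11.02 after MI, against 10.83, 10.51, 10.76, 10.67 and 10.58 after sham. All male sham values lay inside the range of the male MI values, and the difference was 0.12 (95% interval -0.09 to 0.32; adjusted p = 0.457, limma). The female response minus the male response of Esam was 0.31 (SE 0.141), with an unadjusted p of 0.0399 and an adjusted p of 0.558 (limma), so it did not pass the test. Averaged over the sexes the MI minus sham difference was 0.27 (SE 0.0705; adjusted p = 0.00425, limma), and with 75th percentile scaling it was 0.17 (adjusted p = 0.09996) and -0.03 in males. Within chips, the MI minus sham difference of Esam was 0.45 on chip 3 (females), 0.11 on chip 1 and 0.13 on chip 2 (males), and the chip 3 value had an adjusted p of 0.0927 (limma, 4 MI and 2 sham arrays).

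The other junction members were Cdh5, which encodes VE-cadherin of adherens junctions, and Pecam1, an adhesion molecule at endothelial contacts that leukocytes and platelets also carry. Cdh5 probe 1 read 8.99, 8.93, 8.67, 8.41 and 7.59 in female MI, against 8.29, 8.63, 8.23, 7.93 and 7.86 in female sham. Female MI 5 lay below all female sham arrays, while 3 female MI arrays lay above all of them. The difference was 0.33 (SE 0.204; adjusted p = 0.235, limma), and without female MI 5 it was 0.56 with an adjusted p of 0.0114; averaged over the sexes it was 0.23 (adjusted p = 0.217) and 0.35 without that array (adjusted p = 0.0161). In males the same probe averaged 8.62 ± 0.0812 after MI and 8.49 ± 0.253 after sham (SD, n = 5 each), a difference of 0.13 (95% interval -0.29 to 0.56). The spread among male MI arrays was narrow, from 8.52 to 8.69, and lay within the male sham range of 8.13 to 8.79. Cdh5 probe 2 differed by 0.16 (SE 0.197) in females and by -0.04 (SE 0.197) in males, neither past the test.

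Pecam1 had 3 probes, and none passed the test in any comparison with all arrays in the fit. Probe 1 differed by 0.07 (95% interval -0.27 to 0.41) in females and by 0.14 (-0.20 to 0.47) in males. Probe 3 was dim, at 43.0 to 72.3 raw intensity units, and differed by 0.02 in females and 0.06 in males. Probe 2 differed by 0.31 (SE 0.194; adjusted p = 0.246, limma) in females and by -0.23 (SE 0.194) in males. Without the arrays in position F, where this Pecam1 probe read higher by 0.61 on average, the female difference was 0.40 (adjusted p = 0.0425, limma) and the male difference was -0.06. The 3 Pecam1 probes had correlations with each other of 0.169 to 0.329 over the 20 arrays after the group means were removed, and of 0.046 to 0.235 without position F, while the Cdh5 probes had 0.741 and 0.748 without position F.

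Vwf encodes von Willebrand factor, the clotting glycoprotein that endothelial cells store in Weibel-Palade bodies and that megakaryocytes and platelets also make. Its log2 normalised intensity was 8.63, 8.73, 9.18, 8.998 and 9.27 in the female MI mice, against 9.44, 9.69, 9.05, 9.65 and 9.55 in the female sham mice. All but 1 of the female sham arrays lay above every female MI array, and female sham 3 lay among the MI arrays. The mean was 8.96 ± 0.276 in female MI and 9.48 ± 0.255 in female sham (SD, n = 5 each), a difference of -0.51 (SE 0.161; adjusted p = 0.0193, limma). In males the values were 8.70, 8.48, 9.30, 8.97 and 9.11 after MI, against 9.39, 9.27, 9.63, 9.28 and 9.14 after sham. Male MI 3 lay among the male sham arrays and the other 4 male MI arrays lay below all of them. The male difference was -0.43 (SE 0.161; adjusted p = 0.0711, limma), and averaged over the sexes the difference was -0.47 (SE 0.114; adjusted p = 0.00244, limma).

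The female adjusted p of Vwf was 0.0646 without female MI 1 (difference -0.43) and 0.0574 without female MI 2 (difference -0.45), and the male difference passed without male MI 3 (-0.53, adjusted p = 0.0373, limma). With the chip as a fixed block the female difference of Vwf was -0.41 (adjusted p = 0.121), and within chip 3 it was -0.47 (adjusted p = 0.204). Within male chips Vwf differed by -0.60 on chip 1 and -0.18 on chip 2. Averaged over the sexes, Vwf stayed past the threshold in all 20 fits that left out 1 array, with adjusted p-values up to 0.00609.

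Tie1 and Tek encode the receptor tyrosine kinases of the angiopoietin pathway. Tek (also called Tie2) binds the angiopoietins, and Tie1 is a co-receptor that pairs with it. Tie1 read 6.85, 6.66, 6.84, 6.85 and 5.82 in female MI, against 6.86, 7.21, 7.30, 6.69 and 6.81 in female sham. The female groups overlapped, and female MI 5 lay far below the rest. In males Tie1 read 6.78, 6.69, 6.59, 6.85 and 6.92 after MI, against 6.93, 7.22, 7.81, 6.79 and 7.24 after sham. The highest male value was male sham 3, and the male groups overlapped only through male sham 4. The difference of Tie1 was -0.37 (SE 0.195; adjusted p = 0.163) in females and -0.43 (SE 0.195; adjusted p = 0.136) in males, and averaged over the sexes it was -0.40 (SE 0.138; adjusted p = 0.0258, limma). That averaged call held in all 20 fits that left out 1 array (adjusted p up to 0.0493). Without the arrays in position F, where Tie1 read higher by 0.43, it was -0.32 (adjusted p = 0.0521), with 75th percentile scaling -0.35 (adjusted p = 0.0568) and with no filter on dim probes -0.40 (adjusted p = 0.0688). Within chips Tie1 differed by -0.19 on chip 3 (females), -0.63 on chip 1 and -0.13 on chip 2 (males).

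Tek averaged 8.55 ± 0.375 in female MI and 8.81 ± 0.304 in female sham, and 8.63 ± 0.133 in male MI and 8.78 ± 0.254 in male sham (SD, n = 5 each). The groups overlapped in both sexes. The differences were -0.26 (95% interval -0.61 to 0.09) in females and -0.15 (-0.50 to 0.21) in males, and -0.20 averaged over the sexes (adjusted p = 0.189, limma). Tek read lower by 0.56 in position F, and female MI 4 (7.98) and female sham 2 (8.29) were the lowest female arrays. Without the position F arrays the averaged difference of Tek was -0.24 (SE 0.0855; adjusted p = 0.0308, limma), and with position F as a term in the fit it was -0.26 (adjusted p = 0.00959).

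The promoters of the receptor pair are shown here because Tie1 and Tek are partners in 1 pathway and differ in a motif that holds the core bound by ETS factors, a transcription factor family active in endothelial cells. The sequences are from RefSeq, build GRCm38.p6, and run from 250 bases before the start of the gene to 50 after it, 5′ to 3′ on the gene's strand. Capitals mark GGAAG on either strand (GGAAG or CTTCC). Tie1 lies at chr4:118489800-118490099 on the minus strand and Tek at chr4:94739039-94739338 on the plus strand.
Tie1: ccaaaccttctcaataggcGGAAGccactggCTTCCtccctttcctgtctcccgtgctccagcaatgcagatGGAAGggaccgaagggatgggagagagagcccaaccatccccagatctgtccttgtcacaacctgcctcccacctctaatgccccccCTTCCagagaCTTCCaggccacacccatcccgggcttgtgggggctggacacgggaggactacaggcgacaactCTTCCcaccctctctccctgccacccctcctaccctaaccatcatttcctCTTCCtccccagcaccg
Tek: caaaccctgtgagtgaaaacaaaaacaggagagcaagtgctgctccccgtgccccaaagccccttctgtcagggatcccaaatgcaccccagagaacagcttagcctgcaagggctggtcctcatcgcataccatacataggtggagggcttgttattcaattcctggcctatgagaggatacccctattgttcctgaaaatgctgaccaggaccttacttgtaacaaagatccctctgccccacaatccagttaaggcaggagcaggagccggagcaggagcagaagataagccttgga
The Tie1 window holds GGAAG 7 times and the Tek window 0 times, while Tek holds GATAA, the core bound by GATA factors, 1 time. GGAAG is the ETS core GGAA with a following G. The core alone was not counted, and the Tek window also holds it, as TTCC. The promoter table held 8 promoters for 6 of the 10 genes (Kdr, Tie1, Tek, Eng, Emcn and 3 for Egfl7), of which 6 held GGAAG. Of all 32851 mouse promoters of this length 71.4% held GGAAG and 25.4% held GATAA on either strand, and a match is a description of the letters only.

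Kdr encodes VEGF receptor 2, the main receptor for vascular growth signals on endothelial cells. Its probes were not well above background: 1 was detected on 1 of 20 arrays (raw intensity 29.9 to 45.0) and the other on none (25.3 to 39.0), so Kdr has no value here. Another Vwf probe was detected on 0 arrays and another Egfl7 probe on 1 array, and neither was used.

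Eng encodes endoglin, a co-receptor for TGF-beta and BMP ligands that macrophages can also carry. Eng read 9.64, 9.48, 9.55, 9.05 and 8.78 in female MI, against 9.44, 9.13, 9.60, 9.06 and 9.42 in female sham, and 9.41, 9.44, 9.72, 9.65 and 9.38 in male MI, against 9.82, 9.86, 10.01, 9.53 and 9.82 in male sham. The female groups overlapped throughout, and in males 3 of the MI arrays lay below every sham array. The differences of Eng were -0.03 (95% interval -0.35 to 0.28) in females and -0.29 (-0.60 to 0.03; adjusted p = 0.207, limma) in males. The female response minus the male response was 0.25 (SE 0.215; adjusted p = 0.720, limma).

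Emcn encodes endomucin, a sialomucin of capillary and venous endothelium. It read 10.29, 10.30, 10.14, 9.81 and 10.15 in female MI, against 10.47, 6.62, 10.27, 10.15 and 10.28 in female sham. In males it read 10.22, 10.14, 10.20, 10.31 and 10.05 after MI, against 10.43, 10.28, 7.95, 10.24 and 10.28 after sham. The 2 low values, 6.62 and 7.95, are both arrays in position F, and the other array there, female MI 4, held the lowest female MI value. With all arrays the differences of Emcn were 0.58 (SE 0.547) in females and 0.35 (SE 0.547) in males. Without the position F arrays they were -0.08 (SE 0.0979; adjusted p = 0.592) in females and -0.13 (SE 0.0929; adjusted p = 0.370, limma) in males.

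Egfl7 encodes a secreted protein of the vessel matrix, and its gene also hosts a microRNA that these probes do not measure. Probe 1 averaged 11.52 ± 0.276 in female MI and 11.54 ± 0.212 in female sham, and 11.56 ± 0.118 in male MI and 11.64 ± 0.203 in male sham (SD, n = 5 each). All 4 groups overlapped. Its difference was -0.02 (95% interval -0.30 to 0.26) in females and -0.08 (-0.36 to 0.20) in males. Probe 2 differed by -0.08 (-0.36 to 0.20) in females and by -0.11 (-0.39 to 0.17) in males.

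**Figure D2:**
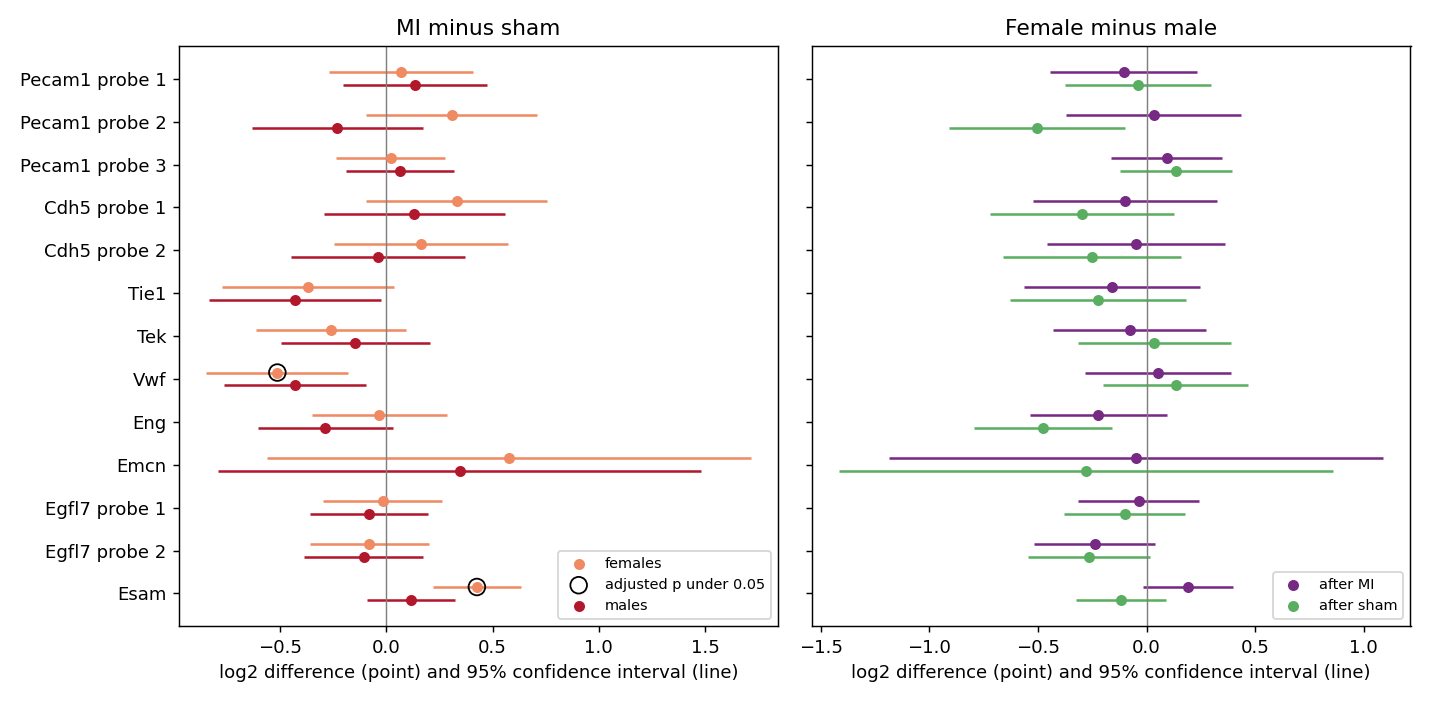
Log2 differences of the 13 endothelial probes (y axis) with their 95% confidence intervals from limma (x axes). The left panel shows MI minus sham in females and males, with a ring around Vwf and Esam in females, the only differences past the threshold there; the right panel shows female minus male after MI and after sham, where no probe passed and Eng and Pecam1 probe 2 after sham have intervals below 0.

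Counted by probe, 1 endothelial probe rose and 1 fell in females, where 30.5% of all probes passed the test, 14.8% higher and 15.6% lower. In males 0 of 13 passed by limma, where 16.5% of all probes passed, 8.79% higher and 7.73% lower; 2 of the 13 (Vwf and Tie1) had an unadjusted p under 0.05, as did 5764 of all 18683 probes. Averaged over the sexes 1 rose and 2 fell, where 39.0% of all probes passed, 17.4% higher and 21.6% lower. The groups of 1 of the 13 probes (Esam) did not overlap in females, and those of 0 of 13 in males and over both sexes, where the groups of 14.2%, 16.7% and 4.85% of all probes did not overlap. The members' shares were 2 of 13, 0 of 13 and 3 of 13, each below the share over all probes. The median difference over the 13 probes was 0.02 in females and -0.08 in males, beside medians over all probes of -0.06 in females and -0.04 in males.

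Sex differences at the same surgery were also examined. No chip held MI arrays of both sexes, so after MI every comparison of the sexes was also a comparison between chips. None of the 13 probes passed in females minus males by limma, either after MI (0.145% of all probes passed, 0.0856% higher and 0.0589% lower) or after sham (0.107% passed, 0.0696% higher and 0.0375% lower). The sexes overlapped for all 13 probes, while they did not overlap for 2.98% of all probes after MI and 1.73% after sham. At an unadjusted p under 0.05 there were 0 of 13 after MI, beside 2637 of all 18683 probes, and 2 of 13 after sham, beside 2481 of all probes. The 2 after sham are Eng and Pecam1 probe 2, and their share is near that of all probes. Eng averaged 9.33 ± 0.230 in female sham and 9.81 ± 0.177 in male sham (SD, n = 5 each), a difference of -0.48 (SE 0.152; adjusted p = 0.200, limma). Within chip 2, which held both sham groups, this difference of Eng was -0.39. Pecam1 probe 2 differed by -0.50 after sham (adjusted p = 0.271), and by -0.16 within chip 2. The interaction of MI and sex gave 0 calls among the 13 probes and 0 (0%) over all probes by limma, with 1 of the 13 (Esam) and 1630 of all 18683 probes at an unadjusted p under 0.05.

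Whether members changed by different amounts was asked within arrays, as the change of each member's log2 value relative to Cdh5 (brightest probe of each gene) and of Tek relative to Tie1. None of the 18 comparisons passed after adjustment (exact two-sided permutation test over all assignments of arrays, Benjamini-Hochberg over 18), and 5 against 5 arrays cannot give a p below 0.00794. A single comparison at that lowest p cannot pass an adjustment over 18, so the adjusted result cannot show that members changed alike. Relative to Cdh5, the MI minus sham difference of Tie1 was -0.70 in females, where the groups did not overlap (exact permutation p = 0.00794, adjusted p = 0.143), and -0.56 in males (exact permutation p = 0.0238, adjusted p = 0.143). That of Vwf was -0.84 in females (exact permutation p = 0.0714, adjusted p = 0.214) and -0.56 in males (exact permutation p = 0.0238, adjusted p = 0.143). Esam relative to Cdh5 differed by 0.10 in females and -0.02 in males. When male MI 3 was left out, 3 comparisons had an adjusted exact permutation p of 0.0476: Tie1 in females (-0.70), Vwf in males (-0.68) and Egfl7 in males (-0.28). The female Tie1 comparison did not involve that array, so only its adjustment changed, through the male comparisons beside it. With Cdh5 probe 2 as the reference and all arrays, Tie1 differed by -0.53 in females and -0.39 in males (exact permutation p = 0.00794 and 0.0476). Vwf then differed by -0.68 in females and -0.39 in males (exact permutation p = 0.119 and 0.0635). None of these passed after adjustment.

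**Figure D3:**
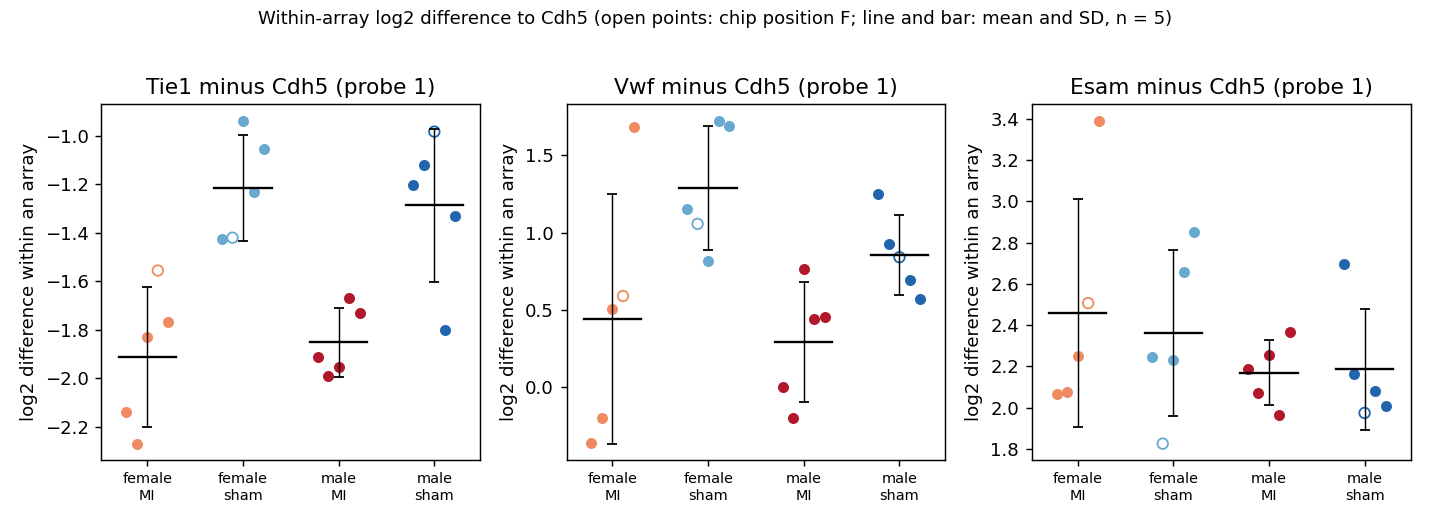
Log2 difference of Tie1, Vwf and Esam to Cdh5 on the same array (y axes) in the 4 groups (x axes); points are arrays, open points are arrays in position F, and lines and bars are means and SD (n = 5). For Tie1 the female MI arrays lie below all female sham arrays, for Vwf the MI mean minus the sham mean is -0.84 in females and -0.56 in males, and for Esam the groups overlap; the height of a point has no meaning of its own, since levels of different probes cannot be compared.

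After the group means were removed, the members did not vary as 1 set over the 20 arrays. Over the 36 pairs of members (brightest probes) the median Pearson correlation was 0.049, with 19 pairs above 0. Cdh5 and Tie1 had 0.732 (Cdh5 probe 1) and 0.796 (Cdh5 probe 2), which were 0.763 and 0.697 without position F. Tie1 and Eng had 0.599, and 0.800 without position F. Vwf had -0.182 with the mean of the members, and -0.332 without position F. Tek and Emcn had 0.673 over 20 arrays and 0.073 without the 3 arrays in position F. The genes outside the set that followed its mean residual best were Klhl22 (0.820), Mgll (0.784), Numa1 (0.780), Cep85 (0.749) and Tacc2 (0.748). Only 1 of the top 10, Klhl22, was again in the top 10 without position F, and 5 were with 75th percentile scaling. Both of those settings had genes of the endothelial lists described below in the top 10. These were Arhgef15 (0.873) and Pdgfb (0.856) without position F, and Tcf15 (0.783) and Arhgef15 (0.761) with 75th percentile scaling. The other genes of each top 10 were in none of those lists. The points share chips and normalisation, and these correlations are descriptions.

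Beyond the 10 identity genes, other endothelial lists were counted by gene, with the brightest probe of each. Over all measured genes 17.0% rose and 15.5% fell in females, and 10.1% rose and 8.36% fell in males. Of 16 measured genes of tip cells and angiogenic activation 12 rose in females and 7 in males, and 0 fell in either sex, with median differences of 0.84 in females and 0.50 in males. Without position F 12 rose in females and 10 in males. Within chips 7 rose on chip 3 (females), 5 on chip 1 and 0 on chip 2 (males), with medians of 0.84, 0.50 and 0.45. Cd276, an immune checkpoint molecule also found on tumour vessels, rose by 1.48 (SE 0.195; adjusted p = 1.21e-05, limma) in females and by 1.13 (adjusted p = 0.000576) in males. Mcam (CD146) rose by 1.06 in females and 0.99 in males. Angpt2, the angiopoietin that endothelial cells release and that counters Angpt1 at Tek, rose by 1.01 (SE 0.179; adjusted p = 0.000249) in females and by 0.81 (adjusted p = 0.00394, limma) in males. Col4a1 and Nid2, which encode basement membrane proteins, rose by 1.19 and 1.02 in females and by 0.63 and 0.53 in males. The male Nid2 call was lost in some fits that left out 1 array (adjusted p up to 0.104, limma). Several of these genes are also expressed by fibroblasts and mural cells.

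Of 14 measured capillary genes 3 fell in females and 2 in males, 0 rose, and the others did not pass. Their differences had medians of -0.27 in females and -0.29 in males; without position F 5 fell in females and 3 in males. Without female sham 2 alone 6 fell and 1 rose in females, without female MI 3 5 fell, and without male MI 5 5 fell in males. Without male sham 3, male MI 5 or female sham 5, 1 capillary gene rose in females. Within chips 1 rose and 1 fell on chip 3, 6 fell on chip 1 and 0 passed on chip 2 by limma. Tcf15, a transcription factor of heart capillaries, fell by 0.74 (SE 0.153; adjusted p = 0.00101) in females and by 1.00 (adjusted p = 0.000196, limma) in males. Car4, a carbonic anhydrase on the capillary surface, fell by 0.97 (adjusted p = 0.00581) in females and by 1.02 (adjusted p = 0.00808) in males. Within chip 3 the female difference of Tcf15 was -0.38 (adjusted p = 0.169) and that of Car4 was -1.27 (adjusted p = 0.0289). Pan-endothelial genes other than the members were mixed: 3 of 17 rose and 2 fell in females, 2 rose and 2 fell in males, with medians of 0.27 in females and -0.11 in males. Without position F 6 rose and 1 fell in females, and 3 rose and 1 fell in males. Leaving out 1 array gave 3 to 5 that rose and 1 to 2 that fell in females, and 1 to 3 of each in males. Mcam, also in this list, and Cd93, a C-type lectin of endothelium and myeloid cells, were among those that rose. Cd93 rose by 0.81 in females (adjusted p = 0.000789) and by 0.52 in males (adjusted p = 0.0311, limma). The male adjusted p of Cd93 was up to 0.0978 when 1 array was left out. Tmem204, a junction-linked membrane protein, fell by 0.36 in females and 0.44 in males.

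**Figure D4:**
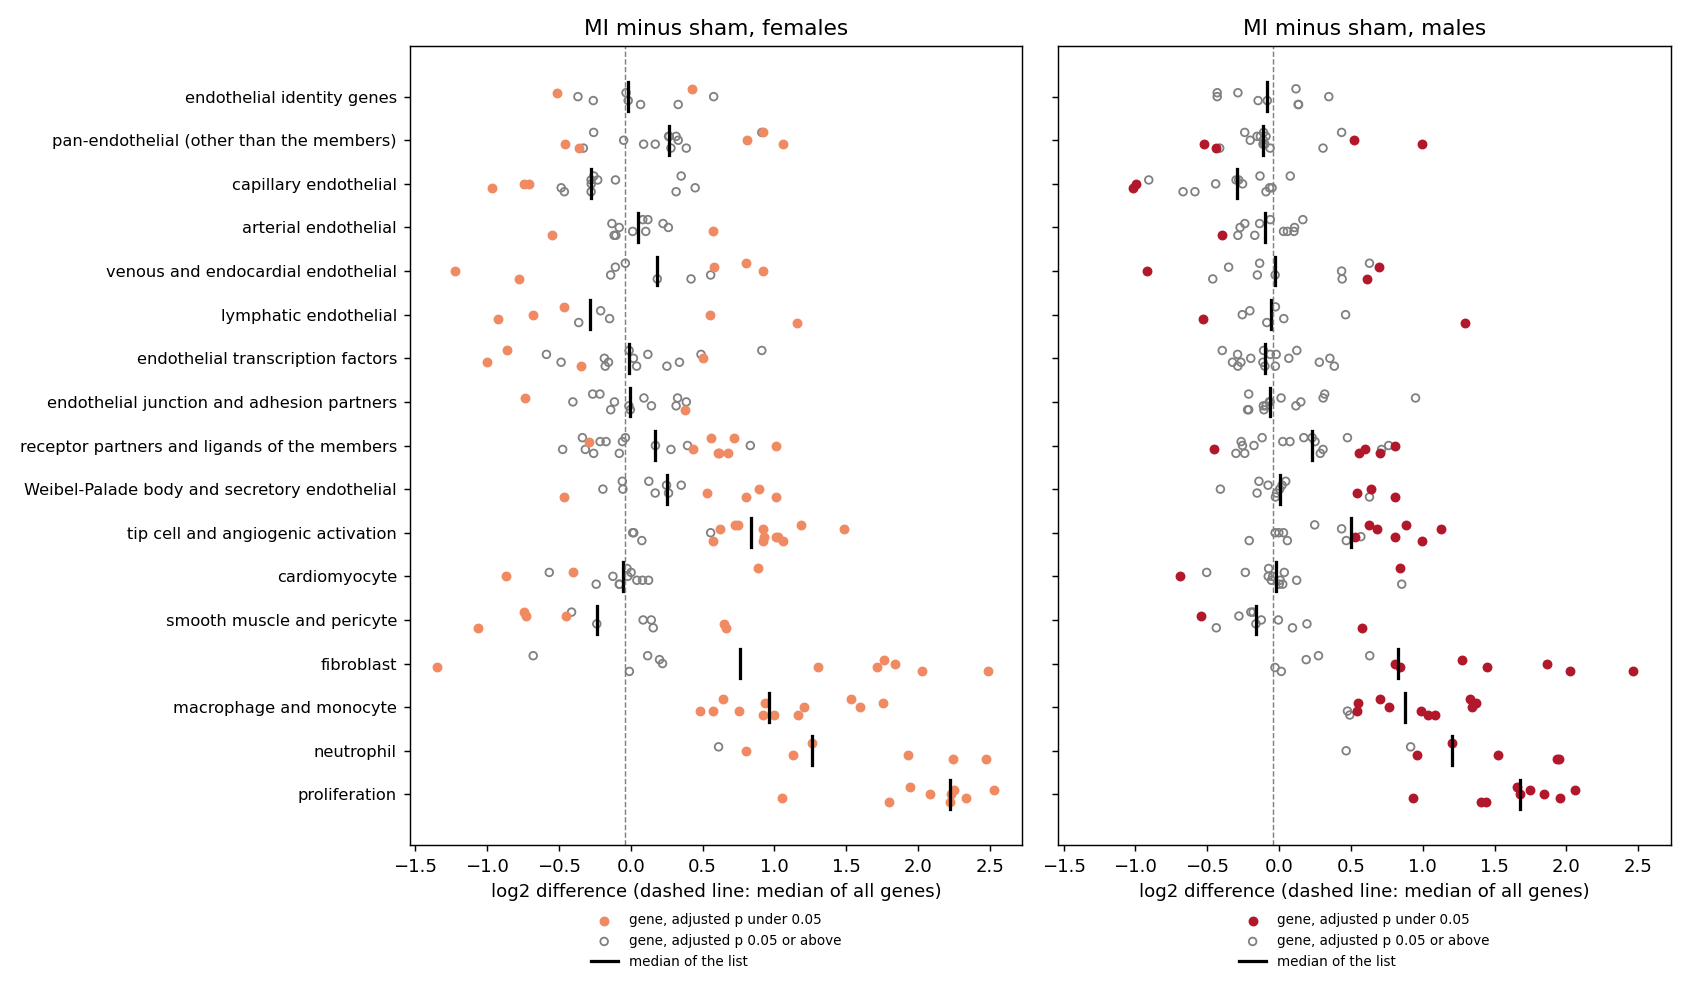
Log2 difference MI minus sham (x axes) of each measured endothelial identity gene and each measured gene in 16 other lists (y axis), in females (left) and males (right). Filled points have an adjusted p under 0.05, bars are list medians and the dashed line is the median of all measured genes. The endothelial identity genes straddle 0, the median of the tip cell list lies to the right at 0.84 in females and 0.50 in males, that of the capillary list to the left at -0.27 and -0.29, and that of the proliferation list furthest right at 2.22 and 1.67.

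Among ligands and receptor partners of the members, 7 of 21 measured rose and 1 fell in females, and 4 rose and 1 fell in males. Leaving out 1 array gave 6 to 8 that rose in females and 4 to 5 in males, with 0 to 2 that fell in each sex; without position F 8 rose and 0 fell in females, and 6 rose and 1 fell in males. Those that rose in both sexes included Tgfbr2, the type II TGF-beta receptor beside endoglin (0.44 in females and 0.60 in males), Vegfd, a ligand of the VEGF receptors (0.61 in females and 0.70 in males), and Angpt2. Tgfbr1 rose by 0.62 in females (adjusted p = 0.00141, limma). Its male difference, also a rise, passed in all 20 fits that left out 1 array (adjusted p up to 0.0238, limma). Weibel-Palade and secretory genes as a list did not follow Vwf: 4 of 13 rose and 1 fell in females, and 3 rose and 0 fell in males. With 1 array left out, 3 to 5 rose and 1 to 2 fell in females, and 2 to 4 rose in males. Among those that rose in females, Selp kept its call in 8 of these 20 fits. Angpt2, also counted among the ligands and the tip cell genes, was among those that rose in both sexes. The gene that fell in females, the direction of Vwf, was Mmrn1 (-0.46, adjusted p = 0.00382, limma). Plat, the tissue plasminogen activator, rose by 0.89 in females and 0.64 in males, and Cd63, a granule and lysosome membrane protein found in most cells, rose by 0.53 in females (adjusted p = 0.0102, and 0.0510 when the female groups were fitted alone). The Cd63 difference in males was 0.54, with an adjusted p of 0.0182 that became 0.0551 without male sham 2 and 0.0710 with 75th percentile scaling (difference 0.40). Of 17 endothelial transcription factors 1 rose and 3 fell in females and 0 passed in males by limma, where the males' median was -0.10. Leaving out 1 array gave 0 to 2 that rose (2 without female MI 3 or female MI 5) and 1 to 5 that fell in females (1 without female MI 5 and 5 without female MI 3), and without position F 0 rose and 2 fell. Klf4, a factor induced by laminar flow, fell by 0.86 in females (adjusted p = 0.00296), and its male difference was -0.40 (adjusted p = 0.192, limma). Of 14 junction and adhesion partners 1 rose and 1 fell in females and 0 passed in males by limma; leaving out 1 array gave 0 to 3 that rose in females (3 without male sham 3). Jam2, a junctional adhesion molecule, fell by 0.74 in females (adjusted p = 0.0152), and its male difference was 0.01 (adjusted p = 0.977, limma).

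Vessel subtypes gave small counts. Of 12 arterial genes 1 rose and 1 fell in females and 1 fell in males. Of 11 venous and endocardial genes 3 rose and 2 fell in females, and 2 rose and 1 fell in males. Leaving out 1 array gave 1 to 4 that rose in females (1 without female sham 5), and 1 to 4 that rose (4 without female sham 2) and 0 to 2 that fell in males. Without position F 3 rose in males. Among arterial genes the counts went to 0 that rose in females and 0 that fell in males when single arrays were left out, and among lymphatic genes to 1 that rose in females and 2 that rose in males. Plvap, the protein of fenestral diaphragms, rose by 0.92 in females (adjusted p = 0.000163, limma). The male difference of Plvap was 0.43 (adjusted p = 0.0604), and its difference in response between the sexes did not pass (adjusted p = 0.558, limma). Sele, the leukocyte-binding E-selectin, rose by 0.69 in males (adjusted p = 0.0103) and by 0.58 in females (adjusted p = 0.0164, limma). Its probe was dim, with a mean log2 value of 4.90 over all arrays. The female Sele call was lost with 75th percentile scaling and with the chip as a fixed block. Npr3, a natriuretic peptide receptor of endocardium, fell by 0.77 in females (adjusted p = 0.00173, limma). Cytl1, also of the venous and endocardial list, fell by 1.22 in females (adjusted p = 0.00167) and by 0.92 in males (adjusted p = 0.0225, limma). The male Cytl1 call was lost in some fits that left out 1 array (adjusted p up to 0.0573, limma). Of 8 lymphatic genes 2 rose and 3 fell in females, and 1 rose and 1 fell in males. Prox1, the factor that sets lymphatic identity and is also expressed in cardiomyocytes, fell by 0.92 in females and 0.53 in males, while Pdpn, which fibroblasts also carry, rose by 1.15 in females and 1.29 in males.

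Markers of other cells moved with surgery beside all of these results. Of 12 measured macrophage and monocyte markers 12 rose in females and 10 in males; their summed intensity was 8419 to 18269 in female MI, 4315 to 6576 in female sham, 8798 to 12038 in male MI and 4839 to 6203 in male sham. Of 7 neutrophil markers 6 rose in females and 5 in males, with sums of 1864 to 4045 in female MI, 628 to 2539 in female sham, 2152 to 3322 in male MI and 409 to 2496 in male sham. Of 12 fibroblast markers 6 rose and 1 fell in females and 7 rose in males, with sums of 14397 to 20457 in female MI, 6222 to 16993 in female sham, 15963 to 17788 in male MI and 7831 to 14267 in male sham. All 9 measured proliferation genes, of 15 listed, rose in both sexes. The detection filter could keep a dim gene of these lists through the MI arrays alone, so such counts lean towards genes that rose. For Vwf and Esam, which platelets share, 1 of 3 measured platelet markers (Ppbp) rose in each sex, by 1.67 in females and 1.22 in males, and the sums were 303 to 2171 in female MI, 543 to 869 in female sham, 1114 to 1927 in male MI and 556 to 951 in male sham. Of 11 smooth muscle and pericyte markers 2 rose and 4 fell in females, and 1 rose and 1 fell in males, with sums of 10018 to 13515 in female MI, 7861 to 11082 in female sham, 8525 to 9651 in male MI and 7315 to 11505 in male sham. Of 14 cardiomyocyte markers 1 rose and 2 fell in females, and 1 rose and 1 fell in males: Nppa, a stress-induced natriuretic peptide, rose by 0.89 in females and 0.84 in males, and Ckm, muscle creatine kinase, fell by 0.87 in females and 0.69 in males. Of 4 measured red cell markers 1 fell in each sex: Alas2, a haem synthesis enzyme, fell by 0.55 in females (adjusted p = 0.0325) and by 0.66 in males (adjusted p = 0.0205, limma). The female Alas2 call was lost without position F, and leaving out 1 array gave an adjusted p of up to 0.0960 in females and 0.0531 in males. Red cell sums were 9519 to 11224 in female MI, 10415 to 13633 in female sham, 9944 to 11476 in male MI and 11830 to 13949 in male sham. The part of these cells in the endothelial differences was not tested.

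**Figure D5:**
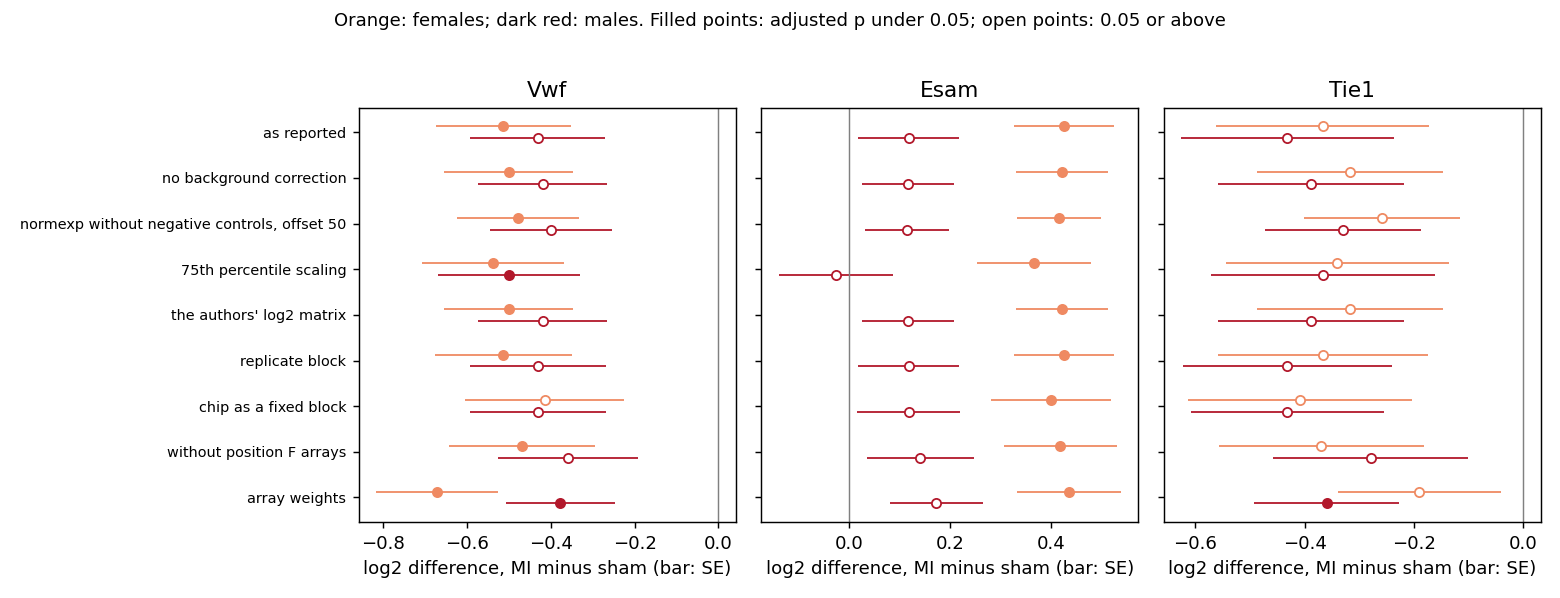
Log2 difference MI minus sham (x axes, bars are SE) of Vwf, Esam and Tie1 under 9 ways of processing or fitting the arrays (y axis), in females (upper point of each pair) and males (lower point); filled points have an adjusted p under 0.05. All Vwf and Tie1 points lie below 0, Esam in females stays between 0.37 and 0.44, and the male Esam point crosses 0 with 75th percentile scaling.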

How the data were processed

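Total RNA of each ventricle was labelled as biotin cRNA and hybridised to 1 Illumina array, per the labels' protocols. The deposited table holds a bead intensity per probe on a linear scale, neither normalised nor background-subtracted, and a detection p-value beside it, per the file headers. A deposited matrix of log2 values, with column medians of 5.1423 to 5.1465, was an alternative; its processing is not given in the sources used here. Intensities were corrected and quantile-normalised by neqc (limma 3.58.1, R 4.3.3, offset 16), which here estimated the control beads from the detection column. Probes with a detection p under 0.01 on 5 or more of 20 arrays were kept, 18683 of 45281. Platform annotation gave 1 symbol to 34885 probes, several to 18 and none to 10378, which are unnamed here. The brightest probe stood for a gene in the lists.

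Group means were estimated over the 20 arrays together (lmFit, eBayes), with Benjamini-Hochberg adjustment over kept probes and a threshold of 0.05. The fit was tested on simulated data. Members and lists were chosen with earlier results of these data known, and lists share genes. All probes of the members are named. From the other lists only some called genes are named, out of the 3 per direction with the smallest p in each MI comparison. The number of arrays limits the precision. Replicate numbers did not pair the arrays: 8 of 30 same-numbered pairs correlated above 0.1 (range -0.399 to 0.461). Alternatives covered background correction, scaling, filter, chip and replicate blocks, position F, array weights and leaving out each array.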

Additional observations from a re-analysis of the deposited data

Results flagged for a closer look

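Of 52 groups of 5 arrays (13 probes in 4 groups), 6 held a value whose gap to its nearest neighbour exceeded Dixon's critical share of the range (0.71); chance gives about 1 in 20 groups. Emcn read 6.62 in female sham 2, where the nearest array of its group had 10.15, and 7.95 in male sham 3, where the nearest had 10.24; both arrays lay in chip position F. Cdh5 probe 2 read 7.04 in female MI 5 (nearest 7.71) and 8.36 in male sham 3 (nearest 7.73). Tie1 read 5.82 in female MI 5 (nearest 6.66). Tek read 8.87 in male MI 4 (nearest 8.59).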

How the results depend on the processing

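No called difference changed sign. The count of endothelial probes past the threshold was 2 in females, 0 in males and 3 averaged over the sexes. With 75th percentile scaling it was 1 in males (Vwf) and 1 averaged. With the chip as a fixed block it was 1 in females, and within chip 3 it was 0 by limma (Vwf and Esam, with adjusted p-values of 0.204 and 0.0927). With array weights it was 5 in females, 2 in males and 5 averaged. Leaving out 1 array gave 1 to 3 in females (1 without female MI 1 or female MI 2), 0 to 1 in males (1 without male MI 3) and 3 to 4 averaged; for unequal change among members it gave 0 to 3 (3 without male MI 3). With the replicate number as a block the counts were 2 in females, 0 in males, 3 averaged and 0 for the sex and interaction comparisons, so the block changed no count; an array correlated best with its own number in 12 of 60 comparisons. Over all probes, 20 passed in female minus male after sham, against 57 with 75th percentile scaling, 6 with detection on all 20 arrays, 11 with the chip block, 12 with the sham groups alone, 4 within chip 2, 60 with position F as a term, 43 with array weights, 13 without male sham 1, 74 without male sham 4 and 36 without female sham 2. After MI 27 passed, against 58 with 75th percentile scaling, 14 with detection on all 20 arrays, 7 with the chip block, 2271 with array weights, 775 without female MI 3, 17 without female MI 1 or female MI 2 and 16 without female MI 4. The interaction had 1 call with array weights, against 0 by limma without them (1630 at an unadjusted p under 0.05). In males 3087 passed, against 1 within chip 2 and 5307 with array weights, and in females 5689, against 1304 within chip 3. The causes were not tested. Signal over background limits Kdr, whose probes were not well above background, and the third Pecam1 probe.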
